A study of Homo sapiens with 6 samples.

Results

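The genes described here are 10 stress-response genes that p53 is known to switch on or that control p53: GADD45A, GADD45B, GADD45G, MDM2, MDM4, PLK2, PLK3, TP53INP1, PHLDA3 and ZMAT3. They were chosen by name, with earlier results of these data known, and each matched 1 Ensembl identifier among the 61496 features of the deposited tables. The cells were U251, an established human glioma cell line, in 3 libraries of untreated control cells and 3 libraries of cells exposed to sevoflurane (Sev), a volatile anesthetic gas, for 2 h. The deposited protocol names 3 Sev concentrations, from 1.7% to 5.1%, without assigning any of them to a library, and the sequenced Sev cells are described elsewhere as treated with 5.1%. The labels do not say whether the libraries of a group came from separate cultures. The p-values therefore measure only the spread between these libraries, which may be technical. All 6 libraries came from the same line.

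The transcription factor p53 answers DNA damage and other stress by switching on genes that stop the cell cycle, repair DNA or start apoptosis. MDM2, an E3 ubiquitin ligase, marks p53 for degradation and is itself a p53 target, which closes a feedback loop, while MDM4, its relative, holds p53 inactive. The 3 GADD45 proteins are small acidic stress proteins that bind the kinase MAP3K4, PCNA and CDK1, and several of them are also induced by factors other than p53, including ATF4.

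The libraries held between 38624292 and 46318311 counts. Of all features, 27514 passed the expression filter and were tested, and of the 10 genes 9 passed, GADD45G being the exception. Levels are given as CPM, counts scaled to an equal library size after TMM normalization, which rescales each library so that most genes do not differ. Glial and glioma markers were present, with VIM, NES, SOX2, SOX9, CD44, GFAP and FABP7 each above 18 FPKM, a deposited unit scaled by gene length, on average in both groups. Of these markers S100B (log2 fold change −1.10) and SOX2 (−0.72) fell and CD44 (0.97) rose, by the edgeR test described below. Markers of other cell types were low, with 12 of 13 under 2 FPKM and KRT18 above. PTPRC, EPCAM, KRT5 and MOG were at or near 0 and were not tested. Of the 9 that were tested, 4 rose, against 22.1% of all tested features, and none fell, against 21.5%. Among the 4 were KRT18 (0.49), MBP (1.01) and PDGFRB (0.81), the PDGFRB call being lost without any 1 library except Sev replicate 3. The part of these markers in the results below was not tested. In such bulk libraries, fewer cells holding a transcript and less of it per cell cannot be told apart.

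Sequences upstream of the start were taken from a table of RefSeq promoter windows (GRCh38.p14), in which 7 of the 10 genes were matched. Windows for GADD45A, TP53INP1 and PHLDA3 were not used here. A pair of windows is shown, that of GADD45B because it rose most among the genes with a window, and the inner window of MDM2 because it holds the elements through which p53 is known to drive this gene. The GADD45B window covers the 250 bases before the start on the plus strand, chr19:2475877-2476126, with 5 bases in exons of GENCODE 29. Its capitals mark the CCAAT boxes (CCAAT) and the TATA box (TATAAA). The MDM2 window covers the 250 bases before the inner start on the plus strand, chr12:68808767-68809016. It lies in the first intron of the longer transcripts, with 15 bases in exons of shorter ones, and its capitals mark an AP-1 motif (TGANTCA) and a pair of p53 elements.
GADD45B: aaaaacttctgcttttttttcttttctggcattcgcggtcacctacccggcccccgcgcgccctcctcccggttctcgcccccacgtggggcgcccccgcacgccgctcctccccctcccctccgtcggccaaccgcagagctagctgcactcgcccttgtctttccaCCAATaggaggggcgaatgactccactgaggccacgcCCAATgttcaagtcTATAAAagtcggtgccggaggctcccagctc
MDM2: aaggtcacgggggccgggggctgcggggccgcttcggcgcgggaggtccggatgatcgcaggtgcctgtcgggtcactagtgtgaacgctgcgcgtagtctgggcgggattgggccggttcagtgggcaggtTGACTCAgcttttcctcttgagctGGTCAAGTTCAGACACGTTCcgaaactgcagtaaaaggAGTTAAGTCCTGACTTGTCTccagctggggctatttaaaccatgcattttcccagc

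Motifs were searched on both strands in the 300 bases from 250 before to 50 after each start. The p53 element, named here for the 20-base p53 consensus with up to 3 mismatches, was found in 5.2% of 35116 promoter windows, and among the 7 genes only in MDM2. Its MDM2 matches started 94 and 56 bases before the inner start, with 2 and 3 mismatches, and were absent from the windows of the outer start. A perfect 10-base p53 consensus, a single copy of the repeat that the element holds in a pair, was in 6.63% of windows and among the 7 genes in PLK2, where it read AGACTTGCTT and began 132 bases before the start. The TATA box was in 11.5% of all windows and among the 7 genes only in GADD45B. The CCAAT box was in 34.6% of windows and in those of GADD45B, GADD45G, MDM2 and ZMAT3. AP-1 was in 7.71% of windows and in MDM2 alone of the 7. The 5-base core of the cAMP response element (TGACG) was in 24.6% of windows and in those of MDM4 and PLK2. The GC box (GGGCGG) was in 45.0% of windows and in those of MDM2, PLK2, PLK3 and ZMAT3. The full cAMP response element (TGACGTCA, which contains TGACG), the ATF4 composite motif (TGATGCAA), the CArG box and the FOXO motif (TGTTTAC) were in 1.85%, 0.866%, 1.29% and 3.42% of windows and in none of the 7 genes. These matches describe letters and were not tested against the expression values.

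Sev-treated cells held more GADD45A, GADD45B, PHLDA3, PLK2 and MDM2 RNA than control cells and less TP53INP1 RNA, while the differences of MDM4, PLK3 and ZMAT3 did not pass the test. The test was edgeR's quasi-likelihood test, 3 libraries against 3, with Benjamini-Hochberg adjustment over all 27514 tested features, and a change was called at an adjusted p under 0.05. Of the 9 tested genes 5 rose, against 22.1% of all tested features. A single gene fell, against 21.5% of all tested features. Since these genes and the lists below were chosen with earlier results known, such shares and medians only describe them and are not independent evidence. With a log2 fold change over 1 and an unadjusted p under 0.05, the threshold named in the study's methods, 2 were higher, GADD45A and GADD45B, against 11.4% of all features, and none was lower, against 12.0%. At an unadjusted p under 0.05 with no limit on the fold, TP53INP1 alone was lower. DESeq2's Wald test called it too, but the call was lost in 6 of 15 other settings. The median log2 fold change was 0.55 over the 9 genes and −0.0056 over all tested features. Scaling by library size in place of TMM lowered the log2 fold change of the median feature by 0.142, and the medians became 0.396 and −0.147.

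**Figure D1:**
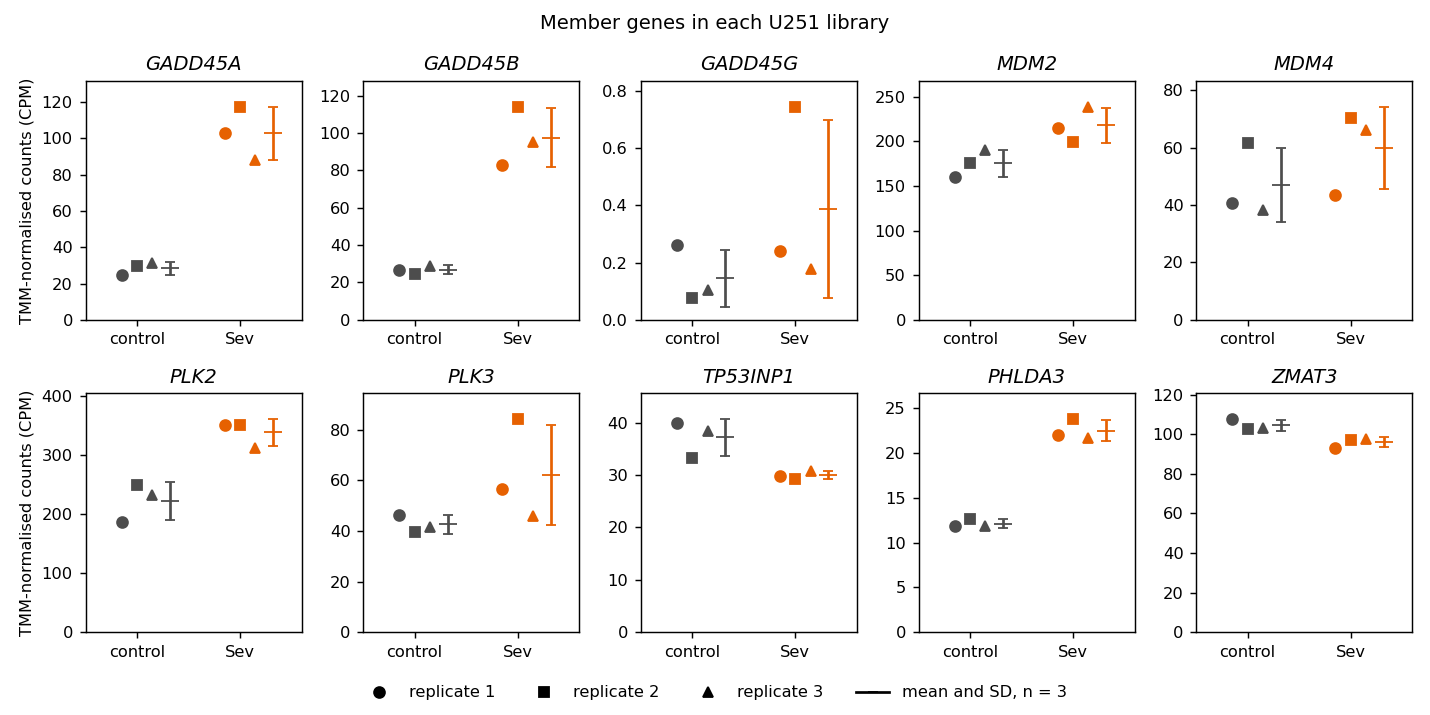
Normalised counts (CPM, vertical axis from 0, scaled for each gene) of the 10 genes in 3 control and 3 Sev libraries, with a marker for each replicate number and bars for the mean and SD (n = 3). All Sev libraries lie above all control libraries for GADD45A, GADD45B, MDM2, PLK2 and PHLDA3, and below them for TP53INP1 and ZMAT3, while the groups overlap for GADD45G, MDM4 and PLK3. Of all tested features, 28.3% lie above and 28.2% below in this manner.

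The GADD45 stress sensors GADD45A and GADD45B gave the largest changes of the 9 tested genes. GADD45A (ENSG00000116717, chromosome 1, 67685061 to 67688338, GRCh38) was at 24.6, 29.6 and 31.4 CPM in the control libraries and at 102.7, 117.4 and 88.2 CPM in the Sev libraries. The lowest Sev library was above the highest control library. Its mean level rose from 28.5 ± 3.54 CPM (SD, n = 3) to 102.8 ± 14.6 CPM (SD, n = 3), a log2 fold change of 1.85 (SE 0.14, adjusted p = 0.000117, edgeR), which is 3.60-fold. Of all tested features, 5.6% had a larger log2 fold change.

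GADD45B (ENSG00000099860, chromosome 19, 2476122 to 2478259), which is also known as an early TGF-beta and NF-kB target, behaved alike in size. Its control libraries held 26.9, 24.3 and 29.1 CPM and its Sev libraries 83.1, 114.2 and 95.0 CPM. The groups were again apart, and Sev replicate 2 was the highest library for both genes. The log2 fold change was 1.86 (SE 0.13, adjusted p = 0.000112, edgeR), or 3.64-fold, and 5.53% of tested features had a larger one. The ratio of GADD45A to GADD45B in deposited FPKM, a unit scaled by gene length, was 1.19 ± 0.171 (SD, n = 3) in control and 1.18 ± 0.174 (SD, n = 3) in Sev libraries, with overlapping groups.

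GADD45G (ENSG00000130222, chromosome 9, 89605013 to 89606555), the last family member, was close to undetected. It had 11, 3 and 5 counts in the control libraries and 9, 28 and 7 in the Sev libraries. The groups overlapped, and Sev replicate 2 (0.745 CPM) stood above all other libraries, which held 0.0757 to 0.26 CPM. The expression filter removed the gene, so it has no test beside the other members of the family. Of 15 other settings 6 tested it and none called it, with an adjusted p of 0.212 without the filter (edgeR) and a range from 0.0934 without Sev replicate 3 (edgeR, the only 1 of the 6 with an unadjusted p under 0.05) to 0.414 (limma without filter). The lincRNA ENSG00000285907, which starts 326 bases from it on the opposite strand, had 0 counts in all 3 control libraries and 5, 7 and 2 counts in the Sev libraries.

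The regulators of p53 changed less. MDM2 (ENSG00000135679, chromosome 12, 68808176 to 68850686) was at 160.2, 175.9 and 190.1 CPM in control and at 214.6, 199.6 and 238.8 CPM in Sev libraries. After TMM scaling the groups did not overlap, the highest control library being at 190.1 and the lowest Sev library at 199.6 CPM. In FPKM they did overlap, with Sev replicate 2 below control replicate 3. Non-overlap with Sev above was found for 28.3% of all tested features. The rise was 1.24-fold, a log2 fold change of 0.31 (SE 0.099, adjusted p = 0.0351, edgeR).

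This MDM2 call was close to the limit, and was lost in 9 of 15 other settings. It was lost without control replicate 1 (adjusted p = 0.108), control replicate 2 (0.0838), Sev replicate 1 (0.0857) or Sev replicate 3 (0.102), all edgeR. It was also lost with library size only (log2 fold change 0.17, adjusted p = 0.22, edgeR) and in limma on log2(FPKM + 1) (0.15, adjusted p = 0.282). The gene-level count adds transcripts from the outer and the inner start, so the p53-responsive inner promoter printed above cannot be told apart from the outer one. MDM2 shares 785 exonic bases with the antisense gene ENSG00000257181, 439 with a processed pseudogene and 133 with the carboxypeptidase M gene (ENSG00000135678), which held at most 2, 4 and 98 counts in a library, against at least 6775 counts of MDM2. How reads in shared bases were counted is not stated, so these low counts cannot show how much the overlap matters.

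MDM4 (ENSG00000198625, chromosome 1, 204516379 to 204558120) was at 40.6, 61.7 and 38.4 CPM in control and at 43.4, 70.2 and 66.2 CPM in Sev libraries. Its groups overlapped, with replicate 2 the highest in both groups. The log2 fold change of 0.35 (SE 0.23, adjusted p = 0.246, edgeR) did not pass, and 2 standard errors on each side span 0.930-fold to 1.76-fold. It moved between 0.22 without control replicate 3 (adjusted p = 0.528) and 0.60 without control replicate 2 (adjusted p = 0.063), both edgeR, and passed in none of the 6 fits that left out 1 library. The ratio of MDM2 to MDM4 in FPKM was 3.21 ± 0.860 (SD, n = 3) in control and 3.11 ± 0.874 (SD, n = 3) in Sev libraries.

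PLK2 and PLK3 are stress-induced polo-like kinases, unlike PLK1, which drives mitosis. PLK2 (ENSG00000145632, chromosome 5, 58453982 to 58460260) was at 186.2, 249.0 and 232.6 CPM in control and at 352.3, 352.2 and 312.9 CPM in Sev libraries. All Sev libraries were above all control libraries, and control replicate 1 was the lowest of the 6. The log2 fold change was 0.61 (SE 0.12, adjusted p = 0.00484, edgeR), a 1.52-fold rise.

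PLK3 (ENSG00000173846, chromosome 1, 44800225 to 44805990) was at 46.5, 39.5 and 41.7 CPM in control and at 56.7, 84.3 and 46.0 CPM in Sev libraries. Sev replicate 3 lay within the control range and Sev replicate 2 far above it. The log2 fold change of 0.55 (SE 0.21, adjusted p = 0.0613, edgeR) did not pass. It was 0.73 without Sev replicate 3 (adjusted p = 0.016) and 0.27 without Sev replicate 2 (adjusted p = 0.115), both edgeR, and DESeq2's Wald test called it with all 6 libraries (adjusted p = 0.0215). PLK3 shares 78 exonic bases with DYNLT4 on the opposite strand, which had 163 to 241 counts in control and 243 to 358 in Sev libraries (log2 fold change 0.67, adjusted p = 0.028, edgeR, lost without any 1 library except control replicate 1 and Sev replicate 3). Since it is not stated whether counting used the strand, reads of this shared end are uncertain. The other kinases of the family did not pass the test, with log2 fold changes of 0.14 (PLK1), −0.10 (PLK4) and −0.30 (PLK5, under 1 CPM), with adjusted p of 0.215, 0.552 and 0.71 (edgeR).

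The 3 remaining genes moved in different directions. PHLDA3 (ENSG00000174307, chromosome 1, 201464383 to 201469237), a PH-domain protein that blocks AKT at the membrane, was at 11.8, 12.6 and 11.8 CPM in control and at 22.0, 23.8 and 21.7 CPM in Sev libraries. The libraries of each group were close together, the highest being 1.07 times the lowest in control and 1.1 times in Sev. The log2 fold change was 0.90 (SE 0.10, adjusted p = 0.000537, edgeR), or 1.86-fold. Its last 598 exonic bases are shared with ENSG00000224818 on the same strand, which had 0 counts in every library. Reads of these shared bases are uncertain too.

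TP53INP1 (ENSG00000164938, chromosome 8, 94925972 to 94949411), a nuclear protein that works with p53 in apoptosis and also in autophagy, was at 39.9, 33.3 and 38.5 CPM in control and at 29.9, 29.2 and 30.8 CPM in Sev libraries. Every Sev library was below every control library, which 28.2% of tested features also showed. It fell by 0.31 on the log2 scale (SE 0.099, adjusted p = 0.0343, edgeR), to 0.805 of the control level. The 6 settings that lost the call included the fits without control replicate 1 (adjusted p = 0.094), control replicate 3 (0.108) or any 1 of the Sev libraries (0.0961, 0.0736 and 0.0578), all edgeR. NDUFAF6 overlaps its locus on the opposite strand without shared exonic bases, and did not pass the test (log2 fold change 0.21). AC087752.3 starts 626 bases away on the opposite strand and had 7 to 17 counts.

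ZMAT3 (ENSG00000172667, chromosome 3, 179017223 to 179072279), an RNA-binding zinc finger protein, varied least between libraries of a group. It was at 107.8, 102.5 and 103.1 CPM in control and at 93.1, 97.4 and 97.6 CPM in Sev libraries. The groups did not overlap, yet the log2 fold change of −0.12 (SE 0.071, adjusted p = 0.201, edgeR) did not pass, and 2 standard errors on each side span 0.833-fold to 1.01-fold. It passed with library size only (log2 fold change −0.26, adjusted p = 0.0259, edgeR). The ratio of PHLDA3 to ZMAT3 in FPKM, which no scaling between libraries can change, was 0.38, 0.427 and 0.396 in control and 0.821, 0.853 and 0.772 in Sev libraries, so these genes changed unequally. The ratio of GADD45A to MDM2 was likewise 1.07, 1.18 and 1.16 in control and 3.35, 4.12 and 2.59 in Sev libraries. These changes and their dependence on the scaling and on single libraries are drawn together in the plot of log2 fold changes.

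**Figure D2:**
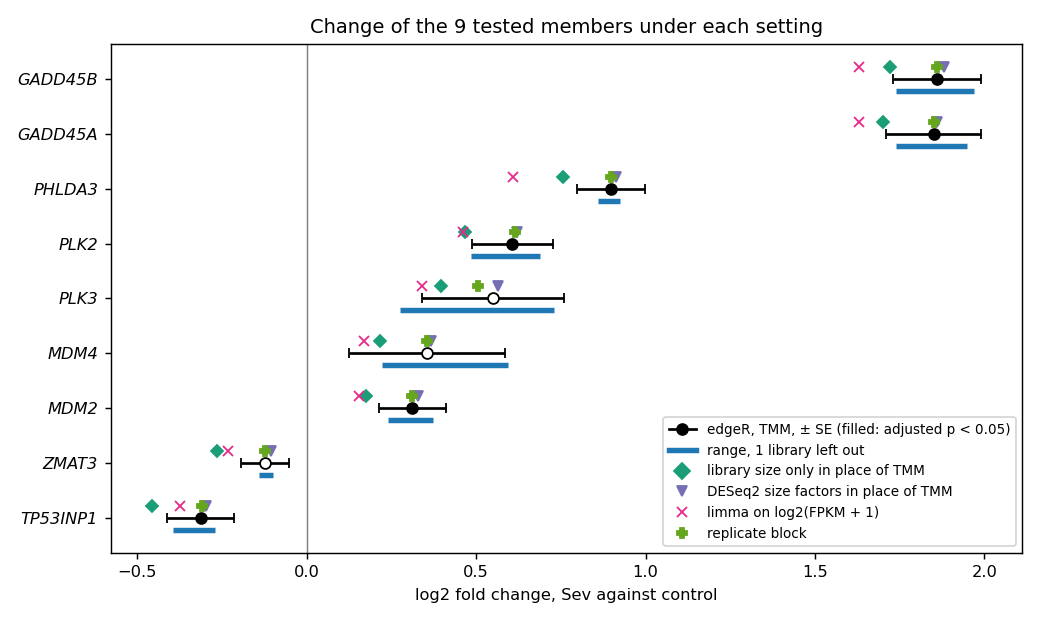
Log2 fold change, Sev against control, of the 9 tested genes by edgeR with TMM (circles ± SE, filled where the adjusted p was under 0.05), the range when 1 library was left out (blue bars), and 4 other settings (symbols). GADD45B (1.86) and GADD45A (1.85) stand apart from PHLDA3 (0.90) and the others under every setting drawn, and library size only moves all genes to the left.

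Per unit of gene length, PLK2 was the most abundant of the 10 genes in both groups, at 40.8 ± 5.20 FPKM (SD, n = 3) in control and 56.3 ± 2.45 FPKM (SD, n = 3) in Sev libraries. In control libraries GADD45A (12.6), MDM2 (11.1), PLK3 (10.9) and GADD45B (10.6 FPKM) followed, and each overlapped the next in this order. ZMAT3 (7.86), TP53INP1 (5.61), MDM4 (3.60) and PHLDA3 (3.15 FPKM) came after, with MDM4 and PHLDA3 overlapping. In Sev libraries GADD45A (41.0 ± 4.45) and GADD45B (35.0 ± 4.90 FPKM, SD, n = 3) came next, overlapping each other and lying above PLK3 (14.4) and MDM2 (12.5 FPKM), which overlapped. PHLDA3 (5.32 FPKM) was then above MDM4 (4.18) and TP53INP1 (4.09 FPKM), which overlapped each other. GADD45G was last in both groups, at 0.0835 and 0.210 FPKM.

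**Figure D3:**
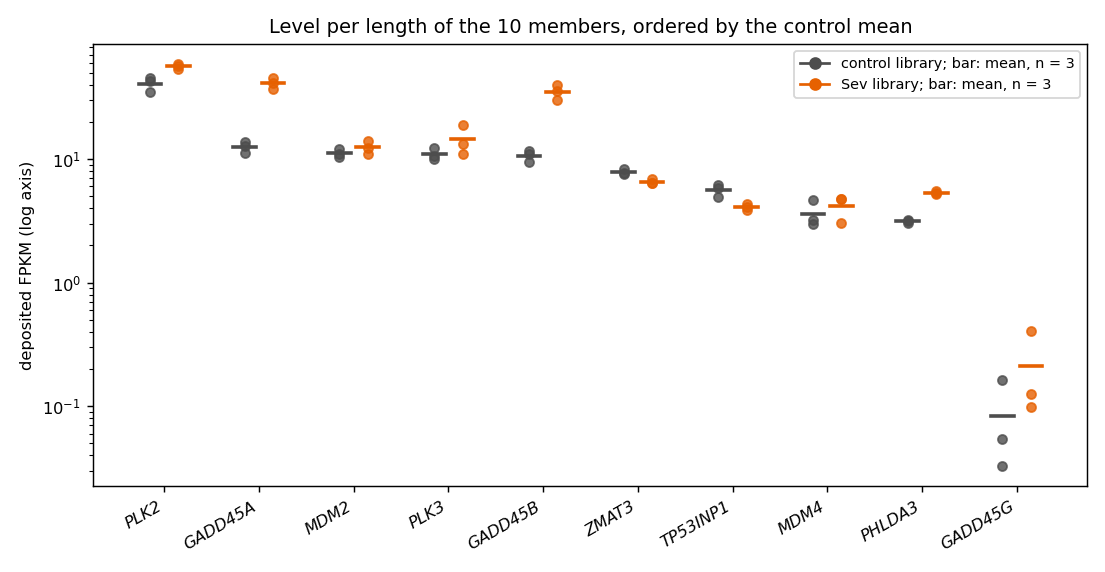
Deposited FPKM (log axis) of the 10 genes in each library, control and Sev side by side, with bars for the mean (n = 3) and genes ordered by the control mean. PLK2 leads in both groups, the GADD45A and GADD45B points move to the places behind it in Sev libraries, and GADD45G lies under 0.5 FPKM throughout.

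Among the Sev libraries, replicate 2 was the highest for 6 of the 10 genes (GADD45A, GADD45B, GADD45G, MDM4, PLK3 and PHLDA3), and it was the highest for 37.5% of all tested features. Replicate 3 was the highest for 3 of the genes and replicate 1 for 1. In the control libraries the highest value was in replicate 1 for 4 genes and in replicates 2 and 3 for 3 each.

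CDKN1A, the p21 inhibitor of cyclin-dependent kinases and the best known p53 target, was at 79.9, 76.6 and 29.5 CPM in control and at 72.8, 93.3 and 24.8 CPM in Sev libraries. Replicate 3 was the lowest library in both groups, and the means, 62.0 ± 28.2 and 63.6 ± 35.1 CPM (SD, n = 3), were close (log2 fold change 0.038, SE 0.50, adjusted p = 0.959, edgeR). Without control replicate 3 it was −0.30 and without Sev replicate 3 it was 0.42, neither past the limit.

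Beyond the 10 genes, p53 targets moved in both directions. Of 44 other genes that p53 is known to activate, 42 were tested, 13 rose and 6 fell, against 22.1% and 21.5% of all tested features, and 23 did not pass. Their median log2 fold change was 0.057, against −0.0056 for all features, and it was −0.097 with library size only, against −0.147. With library size only 12 rose and 10 fell, against 4665 and 7502 of all 27514 tested features. In limma on log2(FPKM + 1), 8 of 37 tested were higher and 10 lower, against 3584 and 6726 of 22370 features, so the balance turned for all features as well. Among the higher ones were AEN, a nuclease of apoptosis (1.36, SE 0.11), PMAIP1, the BH3-only protein NOXA (0.90, SE 0.097), and THBS1, the matrix protein thrombospondin 1 (1.06, SE 0.12), with adjusted p of 0.000165, 0.000435 and 0.000436 (edgeR). POLH, a translesion polymerase (−1.18, SE 0.11), APAF1, the core of the apoptosome (−1.03, SE 0.12), and BTG2, an antiproliferative cofactor (−1.96, SE 0.32), were lower, with adjusted p of 0.000243, 0.000628 and 0.00228 (edgeR). SPATA18 had 2, 4 and 0 counts in control libraries and 16, 40 and 20 in Sev libraries, so its fold is imprecise.

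Some textbook targets are named here after their values were seen. They belong to the list just counted, so they add nothing to its counts. SESN2, a sestrin that restrains mTORC1 and is also an ATF4 target, rose by 1.31 (SE 0.15, adjusted p = 0.000559, edgeR), and TNFRSF10B, the death receptor DR5, by 0.51 (SE 0.069, adjusted p = 0.000991, edgeR) on the log2 scale. XPC, a DNA damage sensor, had a log2 fold change of −0.36 (SE 0.094, adjusted p = 0.017, edgeR), and lost its call without control replicate 1 (adjusted p = 0.053) or Sev replicate 1 (0.0566). BAX (0.20), BBC3, which encodes PUMA (0.47), PPM1D, a phosphatase that switches p53 off (0.25), FAS (−0.37) and GDF15 (−0.39) did not pass, with adjusted p of 0.165, 0.125, 0.127, 0.221 and 0.0701 (edgeR). FAS passed as lower without control replicate 1, and GDF15 as lower in 6 of 15 other settings, among them without control replicate 1 or Sev replicate 2.

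Of 25 genes that act on p53, 24 were tested, 9 rose and 4 fell, against 22.1% and 21.5% of all tested features. The median log2 fold change was −0.057, and 8 fell without Sev replicate 2. The balance turned in other settings, to 7 higher and 9 lower with library size only and 5 and 9 of 23 tested in limma on log2(FPKM + 1). It also turned over all features, to 4665 higher and 7502 lower with library size only and 3584 and 6726 in that limma setting. The acetyltransferases EP300 (0.61, SE 0.077) and CREBBP (0.58, SE 0.10) and the deubiquitinase USP7 (0.53, SE 0.075), which stabilises MDM2 and p53, rose with adjusted p of 0.00077, 0.00309 and 0.00124 (edgeR). The damage kinases ATM (−0.56, SE 0.081) and ATR (−0.78, SE 0.12) and the adaptor TP53BP1 (−0.66, SE 0.11) fell with adjusted p of 0.00138, 0.00187 and 0.00275 (edgeR). Named after its values were seen, CHEK2 fell (−1.08) and CHEK1 rose (0.53), the latter losing its call in 3 of 15 other settings. CDKN2A, whose ARF product blocks MDM2, had 0 counts in all 6 libraries, which allows up to 3 counts each.

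Of 13 genes on the routes downstream of GADD45 proteins, 4 rose and 1 fell, against the same 22.1% and 21.5% (median log2 fold change 0.27). Without Sev replicate 1, 2 fell. MAP2K3, a kinase that activates p38, rose from 23.6 ± 3.50 to 60.0 ± 9.08 CPM (SD, n = 3; log2 fold change 1.35, SE 0.15). PCNA (0.75, SE 0.15) and the DNA glycosylase TDG (0.63, SE 0.12) also rose, with adjusted p of 0.000512, 0.00525 and 0.00484 for the 3 in turn (edgeR), the PCNA call being lost in limma on log2(FPKM + 1) without filter (adjusted p = 0.0567). CDK1, the mitotic kinase, fell from 88.9 ± 8.0 to 47.9 ± 8.85 CPM (SD, n = 3; log2 fold change −0.89, SE 0.15, adjusted p = 0.00228, edgeR). MAP2K7 (0.44) was the fourth that rose, named after its values were seen, and lost its call in 8 of 15 other settings, among them without control replicate 1 or 3 or Sev replicate 1 or 2. MAP3K4 (0.27, adjusted p = 0.0555) and CCNB1 (−0.23, adjusted p = 0.0889), both by edgeR and likewise named afterwards, did not pass. Both passed in some other settings, MAP3K4 in 3 of 15, among them without Sev replicate 3, and CCNB1 in 2 of 15.

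Of 12 stress transcription factors, several of which are known to act on GADD45 genes, 8 rose and 1 fell, against 22.1% and 21.5% of all tested features (median log2 fold change 0.45). ATF4, which the study chose from these libraries so that its direction is not independent evidence, was at 186.9, 172.6 and 177.3 CPM in control and at 372.1, 410.8 and 349.2 CPM in Sev libraries. Its log2 fold change was 1.08 (SE 0.086), beside 0.71 (SE 0.077) for ATF3 and 1.07 (SE 0.12) for DDIT3, with adjusted p of 0.000147, 0.000435 and 0.00049 (edgeR). FOS fell (−0.50, SE 0.11, adjusted p = 0.00789, edgeR). EGR1 (0.46) and FOXO3 (0.46), named after their values were seen, rose, and lost their calls in 8 and 2 of 15 other settings, the 8 of EGR1 including those without control replicate 2 or 3 or Sev replicate 1 or 2.

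Of 15 other early transcripts known to be short-lived, 6 rose and 1 fell, against 22.1% and 21.5% of all tested features (median log2 fold change 0.19). Without Sev replicate 2, 3 fell. KLF10, a TGF-beta early factor (1.54, SE 0.21), CCN1, a matrix protein (0.88, SE 0.11), and NFKBIA, the inhibitor of NF-kB (0.98, SE 0.18), rose with adjusted p of 0.00114, 0.000687 and 0.00369 (edgeR). ZFP36L1, which destabilises mRNA, fell (−0.71, SE 0.11, adjusted p = 0.00195, edgeR). MYC, named after its values were seen, was at 38.3, 21.2 and 43.9 CPM in control and at 134.5, 136.1 and 53.1 CPM in Sev libraries, with Sev replicate 3 close to the control range.

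**Figure D4:**
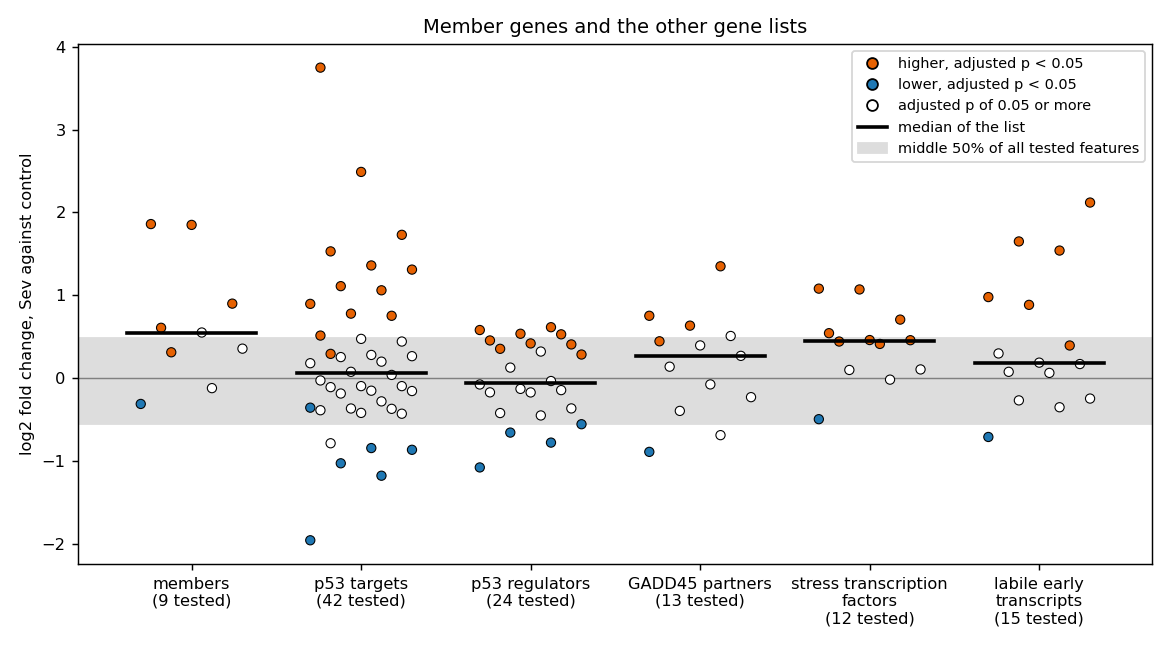
Log2 fold change, Sev against control, of each tested gene (points, coloured where the adjusted p was under 0.05) in the 10 genes described here (members) and in 5 other lists, with the median of each list (black line) and the middle 50% of all tested features (grey band, −0.55 to 0.48). The medians are 0.55, 0.057, −0.057, 0.27, 0.45 and 0.19 from left to right, and the highest point among p53 targets is SPATA18, with 2, 4 and 0 counts in the control libraries.

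As a description of which genes followed the same course, the 3 genes closest to GADD45A over the 6 libraries, among 16061 compared, were MTHFD1L, a mitochondrial one-carbon enzyme, SPTB, an erythroid spectrin, and WIZ, a zinc finger protein. Pearson's r of their log2 CPM with GADD45A was 0.9997, 0.9988 and 0.9987, and their log2 fold changes were 0.88, 3.43 and 0.91. The closest to MDM2 were ENPP1, UTP11 and POMGNT2 (r of 0.9995, 0.997 and 0.9962), with log2 fold changes of 0.21, 0.30 and 0.20, of which UTP11 alone passed the test and lost it in 11 of 15 other settings, among them without any 1 library except Sev replicate 2. The 6 points are 2 groups of 3 libraries, so r mostly reflects the difference between the groups, and 1658 genes had an r over 0.95 with GADD45A and 160 with MDM2.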

How the data were processed

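RNA was sequenced from 6 U251 libraries (ribosomal RNA-depleted, strand-specific), 3 control and 3 Sev, grouped by their titles. The publication describes the sequenced Sev cells as treated with 5.1% Sev. The authors deposited raw counts per gene and FPKM values. Their processing notes name bcl2fastq 2.19, featureCounts and the build hg18, while the aligner, annotation and strand setting are not given in the sources used here. For 9 of the 10 genes, dividing counts by FPKM and library total gave a near-constant length, as library size scaling would. GADD45G, with few counts, gave 1680 to 2380 bases. Symbols were matched for 42005 features, and positions come from GENCODE 29 (GRCh38) through Ensembl identifiers. Overlapping and antisense genes are uncertain.

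Differential expression used the counts, edgeR 4.0.16 and R 4.3.3 (filterByExpr, TMM, glmQLFit, glmQLFTest, no covariate) and Benjamini-Hochberg adjustment. SE is the absolute log2 fold change over the square root of F. An exact permutation test of 3 against 3 cannot go under 0.1. In simulated counts, of which 26678 genes passed the filter, the test called 73.1% of 108 genes changed 4-fold and 42.2% of 83 changed 2-fold, and 94.6% and 59.3% of them at a mean of 100 counts or more. Only 200 genes were changed there, far fewer than were called in the data, so these rates need not hold for the data. Alternatives were DESeq2 1.42.0 (size factors, Wald test), library size only, no filter, 10 counts in every library, a replicate block, each library left out, and limma 3.58.1 on log2(FPKM + 1) or log2(FPKM + 0.1), filtered at 0.5 FPKM in 3 libraries, or unfiltered. Replicates of a group differed beyond sampling noise in 49.0% to 66.6% of 15608 genes.

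The genes and lists were chosen with earlier results of these data known. Lists come from general knowledge. Named were the 10 genes, CDKN1A, 3 PLK kinases, the 3 genes of each list with the smallest p in each direction at an adjusted p under 0.05, the 3 genes most correlated with GADD45A and with MDM2 (mean of at least 1 CPM), and genes overlapping or starting within 1000 bases. Others are marked in the text. One further gene that the rule names is not reported here.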

Additional observations from a re-analysis of the deposited data

How the results depend on the processing

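Over 15 other settings, the 9 tested genes gave 135 values, of which none changed sign, 15 lost and 5 gained a call. GADD45A, GADD45B, PLK2 and PHLDA3 passed in every setting. With library size only, 38.3% of calls over all features were higher, against 50.7% with TMM, and 34.8%, 34.2% and 38.1% in limma on log2(FPKM + 1), log2(FPKM + 0.1) and log2(FPKM + 1) without filter, with medians of all features at −0.147, −0.111, −0.156 and −0.0697. The cause of these changes was not tested.

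Of the 9 genes, 1 was lower, against 2 with library size only, limma on log2(FPKM + 1) and the same without filter, and 0 to 1 with 1 library left out. Higher p53 targets were 13, against 8, 8 and 7 in the 3 limma settings in the order above. Lower ones were 6, against 10 with library size only, 10 in limma on log2(FPKM + 1) and 11 without filter. Higher p53 regulators were 9, against 5 and 3 in limma on log2(FPKM + 1) and log2(FPKM + 0.1). Lower ones were 4, against 9 with library size only, 9, 7 and 7 in limma, and 4 to 8 with 1 library left out. Higher GADD45 partners were 4, against 2 in limma without filter. The lower one was 1, against 3 with library size only, 2 with DESeq2's Wald test, 2 in limma on log2(FPKM + 1) and 1 to 2 with 1 library left out. Higher stress factors were 8, against 5 in limma on log2(FPKM + 0.1) and 5 without filter. The lower early transcript was 1, against 1 to 3 with 1 library left out.

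CDKN1A, at 0.0376, was −0.124 with library size only, −0.161, −0.176 and −0.161 in limma, and −0.341 to 0.424 with 1 library left out, never past the limit. With 1 library left out, PLK5 was −0.843 to 0.0862, the carboxypeptidase M gene CPM −0.712 to 0.671 and the MDM4 intron pseudogene ENSG00000236779 −0.264 to 0.0362.

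Same-numbered libraries did not deviate together (r of −0.00723, 0.00351 and 0.027), so the numbers were not taken to pair samples. With the replicate block, 5228 features rose and 5021 fell, against 6094 and 5920. In the block fit 0 of the 9 genes were lower (TP53INP1 −0.31, adjusted p = 0.066, edgeR), CDKN1A was −0.032 and CPM 0.23.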
